A study of Mus musculus with 37 samples.

Results

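Collagen chains are the 8 genes described here: the fibrillar chains Col1a1, Col1a2, Col3a1, Col5a1 and Col5a2, and the type VI chains Col6a1, Col6a2 and Col6a3. They were taken as every probe set annotated to these symbols, which gave 16 probe sets of 45101 on the array and 8 genes of 18194 with a symbol. The members were chosen by name, with earlier results of all comparisons on the same arrays in view and no threshold on any contrast, so counts over the members describe them and support nothing about why they were picked. All 16 probe sets passed the filter on low values, 10 of them by lying above background (the median of the whole table, 3.19 on the log2 scale) on all 37 arrays. The other 6 were above it on 4 to 33 arrays.

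The study put Cdca7l, a partner of the MYC transcription factor, or an empty plasmid into cultured mouse astrocytes and measured RNA on oligonucleotide arrays. The cells came from newborn mice (P0-P1) of both sexes, either 129S4/SvJae (called 129 below) or C57BL/6J (B6), and grew in DMEM with 20% serum. They were nucleofected with pcDNA3.1-hygro CDCA7L or with the pcDNA3.1-hygro vector, and the series describes the transfections as stable. The 129 strain gave 4 Cdca7l and 4 vector arrays from females and 5 and 5 from males, and the B6 strain gave 4 and 5 from females and 5 and 5 from males. All groups share the culture, the nucleofection, RNA of a quality score (RIN) above 9 and amplification from 10 ng. Each title carries a clone label such as 3(1), and 15 labels occur with both plasmids in the same strain and sex. The labels do not state what a clone is or whether arrays with different labels are different animals, so the spread and the p-values refer to arrays.

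Fibrillar collagens are triple helices that assemble into the load-bearing fibrils of connective tissue. Type I collagen joins chains of Col1a1 and Col1a2, type III collagen is made of the Col3a1 chain alone, and type V collagen, with chains of Col5a1 and Col5a2, lies within type I fibrils and limits their diameter. Type VI collagen, built from Col6a1, Col6a2 and an alpha 3 chain such as that of Col6a3, forms beaded microfilaments around cells. In the brain, interstitial collagens are known mainly from the meninges, vessel walls and perivascular fibroblasts, and little from the parenchyma where astrocytes lie.

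The members' levels correlated across arrays, so the promoter letters upstream of 4 of them are shown before the values, with 3 common core-promoter motifs marked. RefSeq start sites on GRCm38.p6 gave the 250 bases before the start for 6 of the 8 genes, and Col1a1 and Col5a2 are named only. Capitals mark matches on either strand. A CCAAT box was searched as the letters CCAAT and their reverse complement. A GC box, known as a site for Sp1 and related factors, was searched as GGGCGG and its reverse complement. A TATA box, known to place the start of transcription in some promoters, was searched as TATAAA and its reverse complement. The motifs do not overlap in the windows printed. Over 32851 promoter windows of the same length, 33.8% held a CCAAT box, 32.7% a GC box and 12.4% the TATA letters. The windows are Col1a2 at chr6:4505368-4505617 on the plus strand, Col3a1 at chr1:45311288-45311537 on the plus strand, Col5a1 at chr2:27886175-27886424 on the plus strand and Col6a1 at chr10:76726045-76726294 on the minus strand, each written 5′ to 3′ in the direction of the gene.
Col1a2: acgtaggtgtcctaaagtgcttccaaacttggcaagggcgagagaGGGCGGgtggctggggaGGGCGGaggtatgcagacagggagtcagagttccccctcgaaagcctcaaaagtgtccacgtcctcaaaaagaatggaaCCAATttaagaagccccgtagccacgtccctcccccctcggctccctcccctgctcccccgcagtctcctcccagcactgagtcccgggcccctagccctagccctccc
Col3a1: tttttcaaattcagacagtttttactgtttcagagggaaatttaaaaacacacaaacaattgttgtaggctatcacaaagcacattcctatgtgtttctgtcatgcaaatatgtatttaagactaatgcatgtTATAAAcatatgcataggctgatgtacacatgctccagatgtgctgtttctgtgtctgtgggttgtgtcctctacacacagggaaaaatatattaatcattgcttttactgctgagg
Col5a1: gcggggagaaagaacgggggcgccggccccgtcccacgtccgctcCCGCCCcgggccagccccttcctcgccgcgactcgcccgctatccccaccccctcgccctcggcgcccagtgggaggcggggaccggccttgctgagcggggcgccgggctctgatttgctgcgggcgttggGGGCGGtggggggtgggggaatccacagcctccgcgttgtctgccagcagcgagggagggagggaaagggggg
Col6a1: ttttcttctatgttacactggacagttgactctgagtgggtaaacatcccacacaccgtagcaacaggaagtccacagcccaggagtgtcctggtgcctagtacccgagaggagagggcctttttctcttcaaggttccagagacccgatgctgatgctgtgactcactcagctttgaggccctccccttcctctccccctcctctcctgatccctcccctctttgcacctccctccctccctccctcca
The Col1a2 window held a CCAAT box that begins 109 bases before the start and GC boxes at 205 and 188 bases before it. The Col5a1 window held GC boxes at 205 and 73 bases before the start, and the Col3a1 window held the TATA letters at 117 bases before it. None of the 3 motifs' letters lay in the Col6a1 or the Col6a3 window, and both RefSeq starts of Col6a2 had at least 1 GC box. A match to such letters is a description of the sequence and not evidence of a bound factor, and the members share none of the 3 motifs as a set.

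The astrocyte label was checked against markers first. Of 14 astrocyte markers 12 were measured, and their mean value lay between 8.90 and 12.69 on the 37 arrays. Cdca7l itself read 10.15 to 14.42 on the 18 Cdca7l arrays and 4.12 to 10.43 on the 19 vector arrays, so the lowest of the first lay just below the highest of the second. Array 1(3) of the 129 female vector group had an upper quartile of 8.36 against 9.04 to 9.51 on the other 36 arrays. Array 5.1(1) of the B6 female vector group read 2.40 for Xist, the X-inactivation RNA, which is the level of the male arrays. The other 16 female arrays read 10.71 to 12.20 and the 20 male arrays 2.30 to 2.50. Whether the sex label of array 5.1(1) is wrong was not tested. Without these 2 arrays the member calls of the strain comparison averaged over sex stayed at 15, and those in females went from 4 to 7. The share of all probe sets called without them is not given here, so the rise is not read as particular to the members.

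The type I chains were higher in the 129 cultures than in those of B6. Col1a1, the alpha 1 chain of type I collagen, had its lowest, median and highest value at 10.36, 13.23 and 13.77 on the 8 arrays of 129 females and at 12.48, 13.51 and 13.83 on the 10 arrays of 129 males (probe set 1455494_at, log2). In B6 the same 3 values were 9.50, 10.55 and 12.94 on the 9 female arrays and 3.70, 10.74 and 11.47 on the 10 male arrays. The male ranges of the strains did not overlap, the female ranges did, and the B6 males held the widest spread of any strain and sex. Averaged over sex and plasmid, Col1a1 was lower in B6 by 8.11-fold (difference -3.02 ± 0.62 SE on the log2 scale; limma adjusted p = 0.000635, 18 arrays of 129 and 19 of B6). A second Col1a1 probe set, 1423669_at, gave -4.85 ± 0.88.

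**Figure D1:**
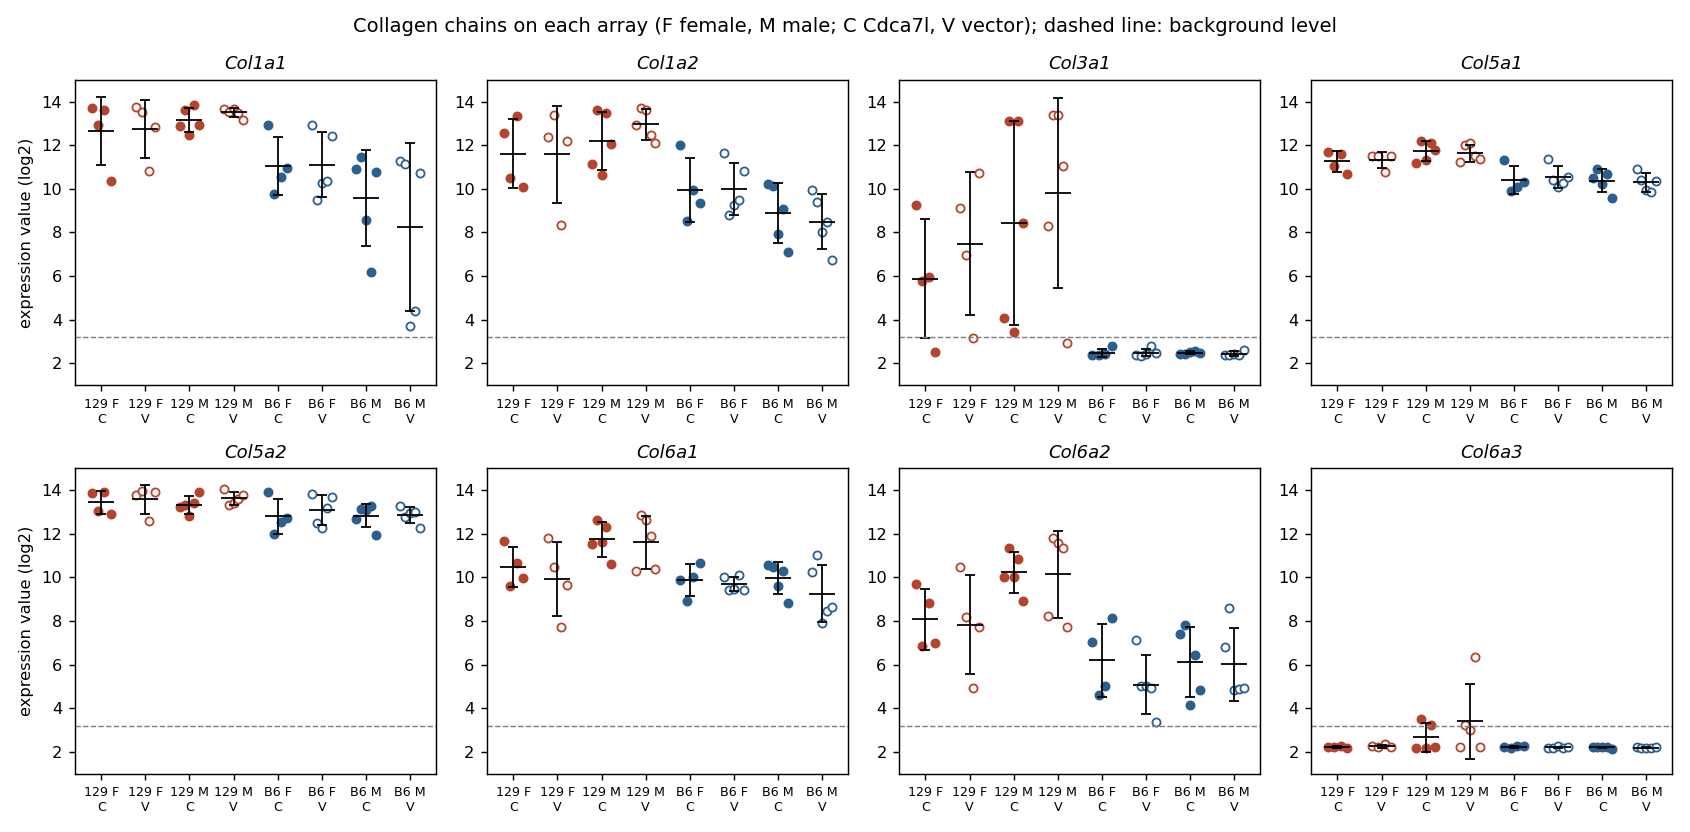
Values of the 8 collagen genes on the log2 scale (vertical axis), each by its probe set with the highest mean, on all 37 arrays in 8 groups (horizontal axis; 129 red, B6 blue, filled Cdca7l, open vector). Bars give the group mean and SD, and the dashed line is the background level of 3.19. All 19 B6 arrays lie below that line for Col3a1, while 15 of the 18 arrays of 129 lie above it.

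Col1a2, the alpha 2 chain of type I collagen, was likewise lower in B6. Its lowest, median and highest values were 8.36, 12.29 and 13.37 in 129 females, 10.65, 12.69 and 13.69 in 129 males, 8.53, 9.49 and 11.99 in B6 females and 6.71, 8.77 and 10.21 in B6 males (1450857_a_at). The male ranges again did not overlap. The strain difference was -2.75 ± 0.45 (6.72-fold lower in B6, limma adjusted p = 4.363e-05). The probe set 1423110_at gave -3.21 ± 0.51 and correlated with the first at r = 0.97 over the 37 arrays, while 1446326_at was above background on only 4 arrays, all of 129.

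Col3a1, the only chain of type III collagen, was the member with the most uneven values. In 129 females it read 2.53, 5.77, 5.96 and 9.25 on the Cdca7l arrays and 3.17, 6.94, 9.10 and 10.74 on the vector arrays (1427883_a_at). In 129 males it read 3.42, 4.08, 8.45, 13.11 and 13.11 with Cdca7l and 2.95, 8.29, 11.05, 13.38 and 13.38 with vector. On the 19 B6 arrays it lay between 2.34 and 2.78, at background throughout. Values thus differed by several log2 units within each 129 group, and 3 arrays of 129 were at background with the B6 arrays. Because the B6 level is only a bound, the strain difference is given as at least 26.2-fold lower in B6 (fitted difference -5.43 ± 0.88, limma adjusted p = 3.622e-05). The bound sets the mean of the 129 arrays against the lowest level counted as above background. This member passed the filter through 129 alone, so a difference between the strains was built into its inclusion.

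Type V chains differed less. Col5a1 had lowest, median and highest values of 10.70, 11.49 and 11.70 in 129 females, 11.17, 11.64 and 12.20 in 129 males, 9.88, 10.31 and 11.38 in B6 females and 9.56, 10.38 and 10.92 in B6 males (1416740_at). The male ranges did not overlap, and the difference of -1.08 ± 0.16 (2.11-fold lower in B6, limma adjusted p = 6.74e-06) had the smallest p of the 8 genes although its size was modest. Col5a2 spanned 12.58 to 14.04 over the 18 arrays of 129 and 11.97 to 13.93 over the 19 of B6, near the top of the scale in every group (1422437_at). These ranges overlapped almost entirely, and its difference was -0.60 ± 0.18 (1.52-fold lower in B6, limma adjusted p = 0.01498).

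Type VI chains split into a pair that moved and 1 that was barely detected. Col6a1 had lowest, median and highest values of 7.75, 10.22 and 11.82 in 129 females, 10.29, 11.76 and 12.86 in 129 males, 8.90, 9.90 and 10.67 in B6 females and 7.90, 9.94 and 11.03 in B6 males (1448590_at). Only the 129 males stood above the rest, and their range still overlapped that of the B6 males. Its strain difference averaged over sex was -1.24 ± 0.33 (2.36-fold lower in B6, limma adjusted p = 0.00704). Col6a2, which like Col6a1 lies on chromosome 10, read 4.94, 7.96 and 10.47 in 129 females, 7.74, 10.43 and 11.79 in 129 males, 3.36, 5.01 and 8.13 in B6 females and 4.15, 5.68 and 8.58 in B6 males (1452250_a_at). Most B6 arrays were below most arrays of 129, with overlap in both sexes. The difference was -3.22 ± 0.52 (9.30-fold lower in B6, limma adjusted p = 3.8e-05). Col6a3 was above background on 4 arrays, all of 129 males, and read 2.14 to 2.26 on the B6 arrays, 2.18 to 2.37 on those of 129 females and 2.17 to 6.33 on those of 129 males (1424131_at). Its difference of -0.43 ± 0.22 did not pass the threshold (limma adjusted p = 0.1469), and no fold is given, since only 4 arrays of 129 males were above background and it passed the filter through them alone.

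Counted over probe sets, 15 of the 16 were lower in B6 at an adjusted p under 0.05 (limma, Benjamini-Hochberg over 25579 probe sets), all but that of Col6a3. Of all tested probe sets 25.2% passed in either direction and 10.6% were lower in B6. Among the 10 member probe sets above background on all arrays, which did not depend on a strain to enter, 10 were lower, beside 24.7% called in either direction and 9.5% lower among all 18413 probe sets of that kind. Those 10 belong to 6 genes, with Col3a1 and Col6a3 outside them. The median difference over the 16 was -1.49, against -0.0047 over all tested. In bulk cultures fewer cells of a collagen-producing type and less RNA per cell cannot be told apart. With arrays of a shared clone label averaged, a setting chosen after seeing the data, Col5a2 and Col6a1 no longer passed (limma adjusted p = 0.0906 and 0.0517), 10 of 16 probe sets did, and the other 5 called genes kept adjusted p between 0.000369 and 0.0137. The share of all probe sets called in that setting is not given here.

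By group, the means of all 4 groups of 129 lay above those of all 4 B6 groups for 7 of the 8 genes, Col6a1 being the exception with 9.92 in 129 female vector cells and 9.96 in B6 male Cdca7l cells. Col3a1 entered through 129, and for Col6a3 the means of all groups but 129 male vector lay below background. The share of all genes with such an order of group means was not counted. Of the 56 steps between neighbours in these orders, 53 were smaller than the larger SD of the 2 groups. The 3 larger steps were those from the lowest group of 129 to the highest of B6 for Col3a1 and Col5a1, and that from the lower male to the higher female group of 129 for Col6a2.

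The difference was then read within each sex. In males 13 of the 16 probe sets were lower in B6, with 10.5% of all probe sets called in either direction and 6.17% lower. In females 4 of the 16 were lower, with 17.6% called in either direction and 5.55% lower. Among the 10 probe sets above background on all arrays 8 were lower in males, beside 8.72% of all such probe sets called in either direction and 4.61% lower. In females 3 of the 10 were lower, beside 18.1% called in either direction and 4.99% lower. Col1a1 was 21.3-fold lower in B6 males (-4.42 ± 0.83, limma adjusted p = 0.000521), while in females its difference was -1.62 ± 0.91 (limma adjusted p = 0.215). Col1a2 was 14.7-fold lower in males (-3.88 ± 0.61), and its female difference of -1.62 ± 0.67 missed the threshold (limma adjusted p = 0.0867). The female difference of Col1a2 passed without the 2 arrays that stand apart (-2.09 ± 0.64, limma adjusted p = 0.0256), with quantile normalization (0.0417) and with array weights (0.000335), and that of Col1a1 with array weights (0.0168). Col1a2 also passed in females without array 1(3) of 129 with Cdca7l (limma adjusted p = 0.044) or vector (0.016) and without Cdca7l array 6(3) of B6 (0.0359). Col3a1 passed in both sexes, at least 61.1-fold lower in males and at least 11.3-fold lower in females.

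Col5a1 passed in both sexes as well, with -1.34 ± 0.21 in males and -0.81 ± 0.23 in females. Col6a2 passed in both, with -4.11 ± 0.71 (17.3-fold) in males and -2.32 ± 0.77 (5.00-fold) in females. Col6a1 passed in males only (-2.07 ± 0.45, 4.19-fold, against -0.41 ± 0.49 in females). Col5a2 passed in neither (-0.65 ± 0.24 in males, limma adjusted p = 0.0867, and -0.55 ± 0.27 in females), but was called in males with the compared groups fitted alone (limma adjusted p = 0.0295) and with array weights in males (0.0281) and in females (0.000559), and in females without Cdca7l array 6(3) of B6 (0.0368). The test of the male against the female strain difference called 0 of 16 members and 0% of all probe sets. All 16 estimates were negative, while 39.6% of all probe sets had a positive one. Of the 16, 6 had an unadjusted p under 0.05, a share that was 15.3% over all probe sets. The probe sets belong to 8 genes whose levels correlated, so their signs are not separate observations. For Col1a2 that difference of differences was -2.26 ± 0.90 (95% interval -4.10 to -0.41, limma adjusted p = 0.244) and for Col6a1 it was -1.66 ± 0.66 (95% interval -3.01 to -0.30, limma adjusted p = 0.244).

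**Figure D2:**
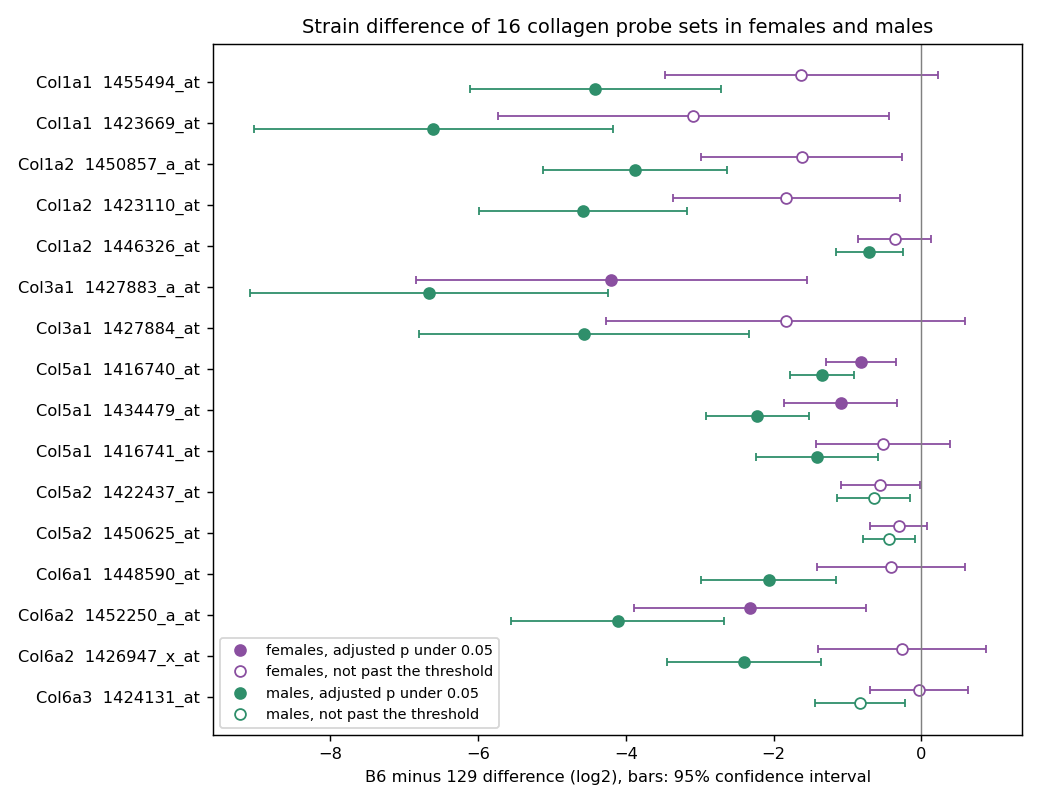
B6 minus 129 difference on the log2 scale (horizontal axis) of each of the 16 collagen probe sets (vertical axis), in females (purple) and males (green), with 95% confidence intervals from limma. Filled points had an adjusted p under 0.05, 4 in females and 13 in males of the 16, and every point lies below 0.

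Some female calls were lost under other settings. That of Col3a1 was lost with values raised to the background level (limma adjusted p = 0.0506) and with the mean over its probe sets (0.0825). With the compared groups fitted alone those of Col5a1 (0.0571) and Col6a2 (0.0798) were lost. Col6a2 also did not pass in females with no filter on low values (0.0532) or with the mean over its probe sets (0.126). With the clone label as a random block only Col5a1 of the 8 genes passed in females (limma adjusted p = 0.0359), Col3a1 standing at 0.0629 and Col6a2 at 0.074, whereas the 6 male gene calls kept adjusted p of at most 0.0108. With arrays of a label averaged, 0 of 16 passed in females (limma adjusted p = 0.054 for Col5a1) and 10 in males, the share over all probe sets not being given here. Leaving out array 4(1) of 129 females, with either plasmid, ended the female call of Col3a1 (adjusted p up to 0.0732), and 9 of the 17 single-array removals ended that of Col6a2 (adjusted p up to 0.100), namely either array 4(1) or 2(1) of 129 and either array 4(5) or 3(3), or vector array 2.1(1), of B6.

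Sex was compared next. In 129, 3 of the 16 probe sets were higher in males, against 8.77% of all probe sets called in either direction and 6.06% higher: 1 each of Col5a1 (1416741_at), Col6a1 (1448590_at) and Col6a2 (1426947_x_at). The first 2 of these lay among the 10 probe sets above background on all arrays, where 8.56% of all such probe sets were called in either direction and 6.27% higher. The Col6a2 probe set was above background on 9 arrays, 7 of them of 129 males and 1 of 129 females, so it entered mainly through the group in which it was high. Col6a1 was 2.79-fold higher in 129 males (1.48 ± 0.48, limma adjusted p = 0.0476), and the main Col6a2 probe set had 2.22 ± 0.75 (limma adjusted p = 0.058). The main Col5a1 probe set, 1416740_at, had 0.387 ± 0.225 and did not pass (limma adjusted p = 0.271). With the mean over its probe sets Col5a1 passed (limma adjusted p = 0.0388). The Col6a1 call was lost with the clone label as a block (limma adjusted p = 0.127), without the 4 male arrays of labels 3(1) and 5(1) (0.86 ± 0.52, adjusted p = 0.352) and without 13 of the 18 arrays in turn (adjusted p up to 0.107). The 5 arrays whose removal kept it were vector 4(1) and 2(1) of the females and Cdca7l 3(2), vector 3(3) and vector 3(2) of the males. In B6, 0 of 16 passed, against 0.0352% of all. Averaged over strains 0 of 16 passed, against 0.321% of all. Of the 16, 3 had an unadjusted p under 0.05, beside 18.1% of all probe sets. In B6 the type I chains ran the other way without passing, Col1a1 with -2.16 ± 0.86 and Col1a2 with -1.28 ± 0.63 for male minus female (limma adjusted p of 1 for each).

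Cdca7l left no called change in any collagen chain. Averaged over strain and sex, 0 of the 16 member probe sets passed, with 0 at an unadjusted p under 0.05, in a comparison that called 0.00782% of all probe sets and had 1.27% at an unadjusted p under 0.05 (limma). Col1a1 differed by 0.21 ± 0.62 between Cdca7l and vector (95% interval -1.05 to 1.47) and Col1a2 by -0.10 ± 0.45 (95% interval -1.02 to 0.82). For Col3a1 the difference was -0.74 ± 0.88 (95% interval -2.53 to 1.06). These intervals come from the fit without clone pairs. Type V chains had narrower intervals, Col5a1 at -0.01 ± 0.16 (95% interval -0.33 to 0.31) and Col5a2 at -0.19 ± 0.18 (95% interval -0.56 to 0.18). Col6a1 had 0.39 ± 0.33 (95% interval -0.29 to 1.07), Col6a2 0.39 ± 0.52 (95% interval -0.67 to 1.46) and Col6a3 -0.19 ± 0.22.

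Within the 4 strain and sex groups 0 of 16 members passed in each, as did 0% of all probe sets, and no member had an unadjusted p under 0.05. The largest fitted differences of the 8 genes were those of Col3a1 in 129 females (-1.61 ± 1.88) and of Col3a1 in 129 males (-1.38 ± 1.68). Col1a1 followed with 1.33 ± 1.18 in B6 males, where the vector arrays read 3.70, 4.38, 10.73, 11.14 and 11.27 and the Cdca7l arrays 6.17, 8.58, 10.75, 10.92 and 11.47. The 2 lowest vector arrays and the 2 lowest Cdca7l arrays of B6 males carried the same clone labels, 5.6(1) and 2(2). Without vector array 5.6(1) of B6 males the Col1a1 difference averaged over groups went from 0.21 to -0.07. The tests of Cdca7l by sex and Cdca7l by strain likewise called 0 of 16 members and 0% of all probe sets, with 0 members at an unadjusted p under 0.05.

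**Figure D3:**
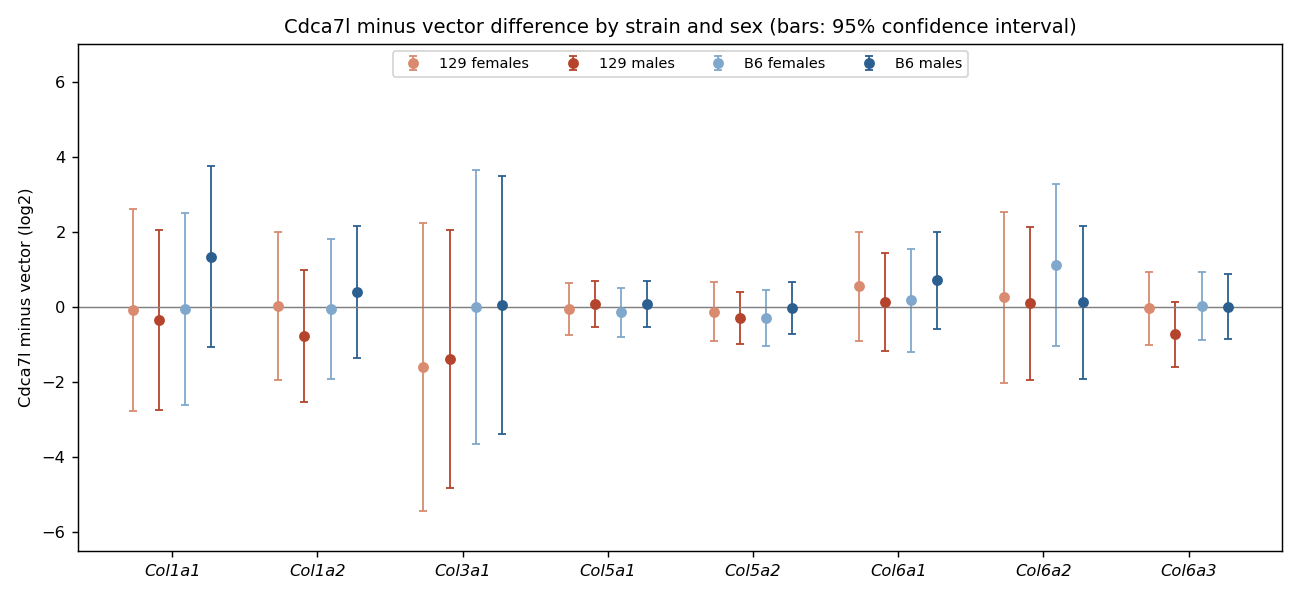
Cdca7l minus vector difference on the log2 scale (vertical axis) for each collagen gene (horizontal axis) in 129 females, 129 males, B6 females and B6 males, with 95% confidence intervals from limma. Every interval covers 0, and those of Col5a1 and Col5a2 are the narrower ones.

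Arrays that share a clone label were compared next. For Col1a1 the 15 pairs of arrays with a shared label differed by a median of 0.20 in absolute size, and 10 of the 15 were higher with Cdca7l. Over the paired labels, its SD between label means within a strain and sex was 1.95, and its SD within a label was 0.97. The SD within a label comes from the Cdca7l and vector arrays of each pair, so it holds any difference between the plasmids. As examples of close pairs, label 4(1) of 129 females read 13.71 with Cdca7l and 13.77 with vector, and label 4(5) of B6 females read 9.77 and 9.50. The labels with the lowest values were in B6 males, where label 5.6(1) read 8.58 with Cdca7l and 3.70 with vector and label 2(2) read 6.17 and 4.38.

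For Col1a2 the SD was 1.43 between labels and 0.58 within, for Col5a1 0.49 and 0.27, for Col5a2 0.56 and 0.26, for Col6a1 0.98 and 0.68 and for Col6a2 1.50 and 0.72. Col3a1 had 2.64 and 1.57, with 3 pairs in which the message was high on 1 array and much lower on the other. Label 2(3) of 129 females read 5.77 with Cdca7l and 10.74 with vector, label 3(3) of 129 males 4.08 and 8.29, and label 3(2) of 129 males 8.45 and 2.95. The direction thus differed between these pairs. In 129 the other 5 of 8 pairs differed by less than 1 log2 unit, and the 7 pairs of B6 were at background on both arrays.

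**Figure D4:**
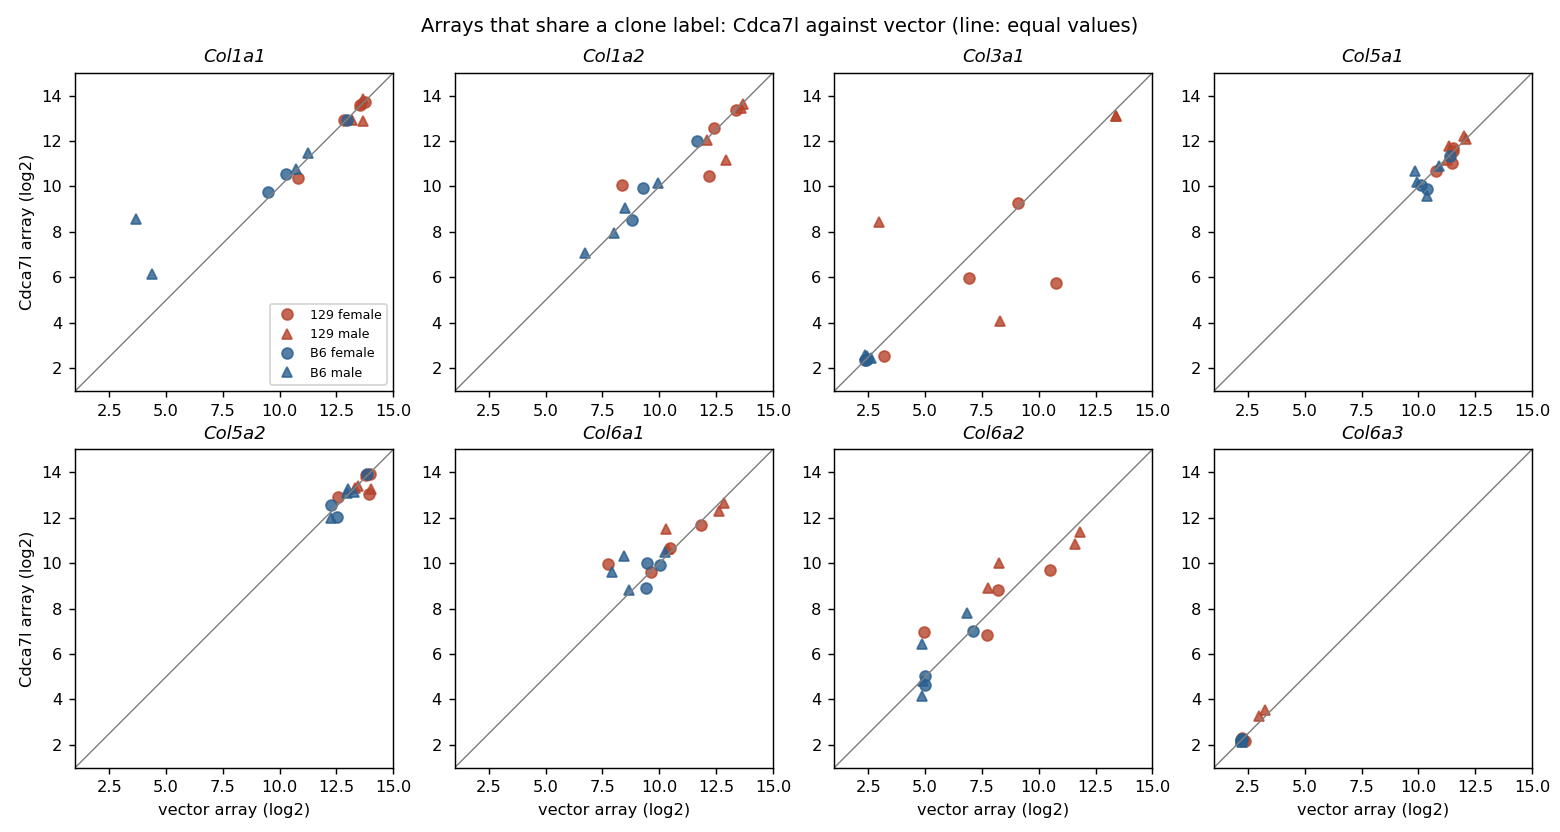
Value on the Cdca7l array (vertical axis, log2) against that on the vector array (horizontal axis, log2) for the 15 clone labels with both plasmids, one panel for each collagen gene (129 red, B6 blue, circles female, triangles male). The line marks equal values, and the pairs farthest from it are 3 of Col3a1 in 129 and 1 of Col1a1 in B6 males, with a difference of 4.88.

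Levels of the chains correlated over arrays, which is given as a description since arrays share strain, sex and clone label. Among the 5 fibrillar chains, each by its main probe set, the 10 pairs had Pearson r between 0.49 and 0.91 over the 37 arrays, median 0.76. Other probe sets of these genes could differ. Col5a1 1416741_at, above background on all 37 arrays, had r = 0.49 with the main Col5a1 probe set and 0.01 with that of Col5a2. Col3a1 1427884_at had r = 0.94 with the main Col3a1 probe set. Col1a2 and Col5a1 were the closest pair with r = 0.91, still 0.82 after the group means were taken off. Among the type VI chains Col6a1 and Col6a2 had r = 0.91 and 0.90 after group means were taken off, while Col6a3 had 0.46 with Col6a1 and 0.51 with Col6a2. Across the families r ran from 0.16 (Col5a2 and Col6a3) to 0.84 (Col5a1 and Col6a2).

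Of 12131 other genes, those most like the mean profile of the fibrillar chains over 37 arrays were Sh3pxd2a (r = 0.94), Mfap5 (0.94), Fbln2 (0.92), Bgn (0.91), Septin11 (0.91) and Inhba (0.91). Mfap5 and Fbln2 encode proteins of elastic fibres and Bgn encodes biglycan, a small proteoglycan of the matrix. Those most like the type VI profile were Gnb4 (0.85), Bnc2 (0.84), Dpy19l1 (0.82), Tmc4 (0.82), Apcdd1 (0.81) and Sh3pxd2a (0.81). Sh3pxd2a, which encodes a scaffold protein of podosomes, was the gene on both lists. The profiles are unscaled means, so Col3a1 (SD 3.88 over the arrays) weighs more in the fibrillar profile than Col5a2 (SD 0.59).

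Genes that make, process or bind collagen were read from lists drawn up for the strain comparison averaged over sex, beside 16.5% of all 12139 genes higher and 10.4% lower in B6. Of 9 measured genes for procollagen cleavage and cross-linking 4 were lower and 1 higher in B6. Lox, the lysyl oxidase that starts cross-links, had -3.40 ± 0.91, and Pcolce, an enhancer of propeptide removal, -1.03 ± 0.29, and Pcolce2, a related enhancer, -2.41 ± 0.74, while Adamts3, a procollagen propeptidase, had 1.42 ± 0.40. The other lower gene, Loxl4, was above background on 2 B6 arrays and 12 of 129. Of 8 fibril-binding genes 2 were lower and 0 higher, Bgn with -0.97 ± 0.15 and Dcn, the proteoglycan decorin, which was above background on 1 B6 array and 7 of 129.

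Of 18 measured genes for chain hydroxylation, glycosylation and folding 2 were lower and 1 higher. P4ha2, a prolyl hydroxylase subunit, had -1.10 ± 0.37, Mia3, which helps procollagen leave the endoplasmic reticulum, -0.34 ± 0.12, and P3h2 0.91 ± 0.28. The list's median difference was -0.16. Of 8 receptors and uptake genes 2 were lower, Mrc2 (an endocytic collagen receptor, at background on all B6 arrays and at least 3.15-fold lower there) and Itgb1 (-0.74 ± 0.24), and 2 higher, Itga1 (1.16 ± 0.21) and Ddr2 (1.31 ± 0.34), both collagen receptors.

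Other collagens went in both directions. Of 3 measured further fibrillar genes (Col5a3, Col11a1 and Col27a1) 0 passed, with a median difference of -0.13. Of 15 measured basement membrane and fibril-associated collagens 3 were lower and 2 higher: Col4a2 had -0.86 ± 0.21, and Col7a1 and Col16a1 were above background on 0 and 1 of the B6 arrays and on 9 and 11 of those of 129, while Col12a1 had 2.15 ± 0.49 and Col4a6 0.78 ± 0.21. Of 16 genes for TGF-beta ligands, receptors and Smads, a pathway known to raise fibrillar collagen transcription, 1 was lower, Ltbp1. The 2 higher genes were Ski and Smad6, and the list's median was -0.07. For Cdca7l minus vector, averaged, none of these lists held a called gene.

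Markers of other cells also differed between the strains. Of 20 fibroblast and meningeal markers, collagens left out, 19 were measured. Their mean value was 6.08 to 10.19 on the arrays of 129 and 6.09 to 6.94 on those of B6, and 11 of the 18 arrays of 129 lay above the highest B6 array. Dpt, Aldh1a2, Foxd1, Twist2, Tbx18 and Igfbp6 were at background on all 19 B6 arrays and above it on 4 to 10 arrays of 129, while 8 of the 19 were above background on every array. Between strains 10 of the 19 were lower and 2 higher in B6, beside 10.4% lower and 16.5% higher of all genes. Mfap5 had -4.09 ± 0.74, and Sfrp1 was higher at 0.87 ± 0.20. Fbln2, with -3.45 ± 0.67, was above background on 6 B6 arrays, and Igfbp6, at background on all of them, was at least 3.82-fold lower. In all 5 of the 10 lower markers were at background on every B6 array, so they had passed the filter through 129. Of the 8 markers above background on every array, only Twist1 was called lower in B6, while Islr and Sfrp1 were called higher. The list's mean had r = 0.87 with the fibrillar profile over 37 arrays (0.79 after group means were taken off) and r = 0.78 with the type VI profile. Both the list's mean and the fibrillar profile hold genes above background on arrays of 129 alone, such as Igfbp6 and Col3a1. These r values thus partly restate which arrays of 129 had such genes above background. Its part in the strain difference was not tested.

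The 4 arrays with clone labels 3(1) and 5(1) in 129 males were highest for the mean of this list, at 9.84 to 10.19 against 6.72 to 7.78 on the other 6 arrays of 129 males. The markers did not move as 1: Thy1 was lower on the 4, at 9.51 to 10.89 against 11.84 to 12.24. Fbln1, Islr, Crabp2 and Sfrp1 were among the markers whose ranges overlapped. On the 4 arrays of labels 3(1) and 5(1) Col3a1 read 13.11 to 13.38, against 2.95 to 11.05 on the other 6, and Col1a2 read 13.46 to 13.69, against 10.65 to 12.93. Col1a1 and Col5a2 did not set these arrays apart, with 13.54 to 13.83 against 12.48 to 13.65 and 13.30 to 13.44 against 12.80 to 14.04. Without these 4 arrays 11 of the 16 member probe sets were lower in B6 averaged over sex and 9 in males. These counts are not set against the share of all probe sets called in that setting, which is not given here. Col3a1, which entered through 129, was then at least 10.1-fold lower in B6 averaged over sex. Col1a2 went to -2.41 ± 0.48 and was still called, while Col6a1 was no longer called (limma adjusted p = 0.063 averaged and 0.121 in males).

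Endothelial markers were measured for 3 of 10 genes (Kdr, Flt1 and Eng), the defining Pecam1 and Cdh5 not passing the filter, and the mean of the 3 was 2.31 to 2.54 on B6 arrays and 2.34 to 7.68 on those of 129. The male arrays of labels 3(1) and 5(1) held the values of 5.81 to 7.68, and no other array of 129 exceeded 3.92. Astrocyte markers ran opposite to the fibrillar profile (r = -0.61), with 6 of 12 higher and 0 lower in B6 beside 16.5% higher and 10.4% lower over all genes, and pericyte and smooth muscle markers had 2 of 6 higher (r = 0.22). Microglia markers had 0 of 9 called (r = 0.22) and oligodendrocyte markers 2 of 5 higher (r = -0.12).

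**Figure D5:**
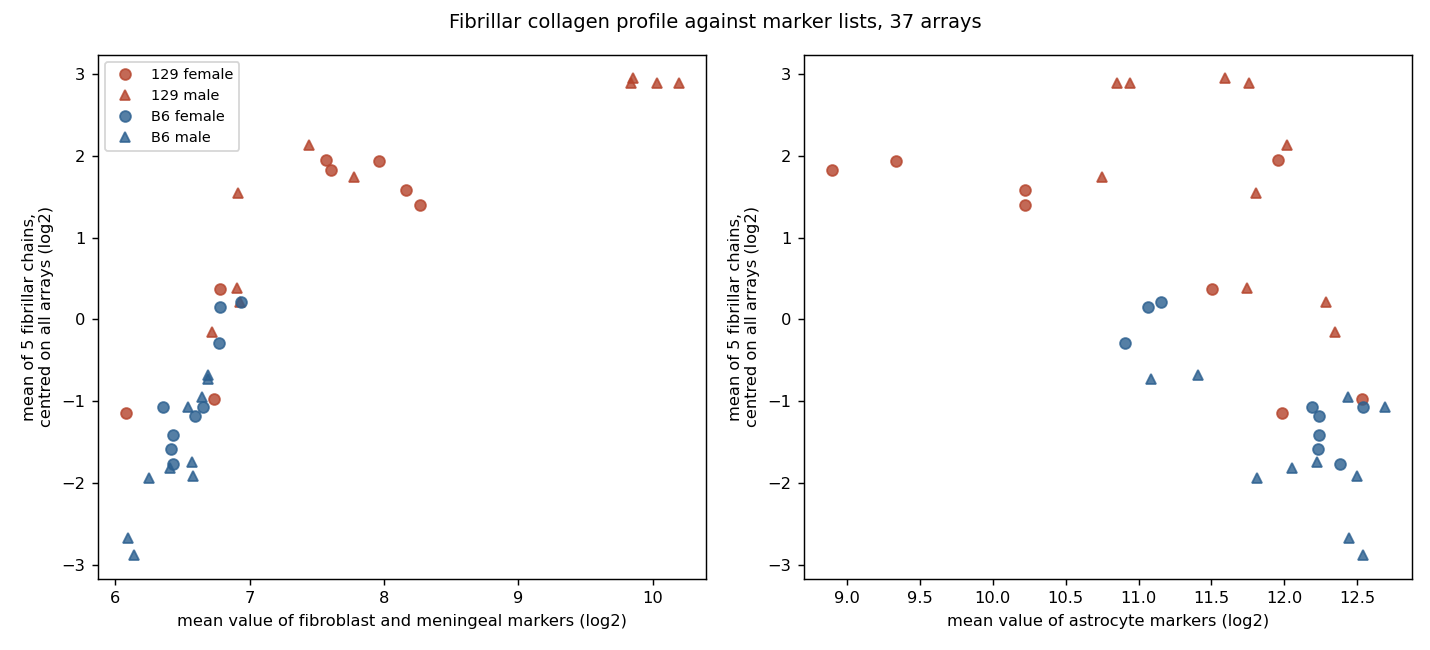
Mean of the 5 fibrillar collagen chains, each centred on its mean over 37 arrays (vertical axis, log2), against the mean value of 19 fibroblast and meningeal markers (left, log2) and of 12 astrocyte markers (right, log2), 1 point per array (129 red, B6 blue, circles female, triangles male). The 4 rightmost points on the left, at 9.84 to 10.19, are the 129 male arrays of clone labels 3(1) and 5(1), and the B6 arrays lie at 6.94 or below.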

How the data were processed

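RNA from 37 cultures in 8 groups was measured on oligonucleotide arrays with 45101 probe sets. The values are log2 signals as the authors deposited them, and the submitters' processing notes name GCRMA and Partek 6.5 without giving their order. GCRMA draws dim probe sets to a common low level, so small differences near background are compressed. Control probe sets (64) were left out. A probe set was tested if it exceeded the table's median, 3.19, on at least 4 arrays, which kept 25579.

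Group means of all 8 groups were fitted with limma 3.58.1 in R 4.3.3 (29 residual degrees of freedom), with Benjamini-Hochberg adjustment over all tested probe sets and a threshold of 0.05. Comparisons were B6 minus 129, male minus female and Cdca7l minus vector, averaged and within groups, and their interactions. Each gene is represented by its probe set with the highest mean. A bounded fold is taken against the lowest level above background. The 8 members and the gene lists were chosen with earlier results of these data known. All members are named, with the 6 genes most like each collagen profile. The 2 to 4 genes of smallest p are named from the lists that make, process or bind collagen. The same holds for the basement membrane collagens and the fibroblast markers. Other called genes beside a count were named after their values were seen. From the astrocyte, pericyte and smooth muscle, microglia and oligodendrocyte lists no gene is named. The fit was tested on simulated data. Levels and lists were computed in Python 3.11.15 with pandas 2.3.3.

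Clone labels gave 15 pairs of arrays. Correlations of paired deviations from the group means ran from 0.0610 to 0.716 in 129 females, -0.0887 to 0.623 in 129 males, 0.432 to 0.775 in B6 females and 0.376 to 0.572 in B6 males. The alternatives were other normalizations, filters, weights, floors, replicate blocks, the compared groups alone and leaving out each array, and 2 settings were added after seeing the data: the mean over a clone label, and leaving out labels 3(1) and 5(1) of 129 males.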

Additional observations from a re-analysis of the deposited data

Results flagged for a closer look

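Among 64 sets of 4 or 5 arrays (8 genes in 8 groups), 5 held an array far from the others of its group by Dixon's criterion, which chance gives in about 1 of 20 sets. Array 1(3) of the 129 female vector group read 10.76 for Col5a1, where the other 3 read 11.48 to 11.51, and 12.58 for Col5a2, where the others read 13.80 to 13.98. The same array had the lowest upper quartile of all 37. For Col6a3, array 5(2) of the 129 male vector group read 6.33, where the others read 2.21 to 3.23. For Col3a1, array 1(4) of the B6 female Cdca7l group read 2.77 (others 2.37 to 2.41) and array 3(5) of the B6 male vector group read 2.62 (others 2.37 to 2.43), all below background.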

How the results depend on the processing

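Counts of called member probe sets in the strain comparison averaged over sex (15) and in males (13) stayed within 1.5 times under every alternative run, the lowest being 10 (clone means) and 9 (without labels 3(1) and 5(1) of 129 males), and were 14 to 15 and 11 to 14 when single arrays were left out. In females the count of 4 became 2 with no filter on low values, 10 with array weights (whose estimation gave a convergence warning), 1 with a random replicate block on clone labels, 1 with the compared groups fitted alone, 7 without the 2 arrays that stand apart and 0 with clone means, and ranged from 1 to 8 when single arrays were left out. For sex in 129 the count of 3 became 1 with upper quartile scaling, 1 with array weights, and 0 with the random replicate block, the compared groups alone, clone means and without labels 3(1) and 5(1), with a range of 1 to 5 over single arrays. The cause of these changes was not tested, and the share of all probe sets called under each alternative is not given here. Counts of 0 for Cdca7l stayed 0 under each alternative, the fixed replicate block included. With that block the averaged Cdca7l difference of Col1a2 was 0.009 ± 0.219, beside -0.10 ± 0.45 without it. No called difference changed sign. Arrays give no depth, so their number and the signal over background limit the precision, chiefly for Col3a1 and Col6a3.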
